A study of Homo sapiens with 4 samples.

Results

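The proteasome subunit genes were taken as every probe whose gene symbol begins with PSMA, PSMB, PSMC, PSMD, PSME, PSMF or PSMG followed by a number. This gave 66 probes for 44 genes, of 13321 genes named on the arrays. Of these genes, 41 encode a proteasome subunit, an activator or a dedicated assembly chaperone, and 3 only share the start of the symbol (PSMC3IP, PSME3IP1 and PSMG3-AS1). RNA came from CWR22Rv1, an established prostate cancer cell line that grew out of a human xenograft after castration of its host. There were 2 arrays of cells infected with the lentiviral control vector pLKO.1 and 2 of cells infected with a Siah2 shRNA, which lowers the RNA of this E3 ubiquitin ligase. All cells were grown under puromycin, which selects those that keep the vector. The labels give neither the hairpin's sequence nor the number of clones. They also do not say that replicates were grown separately, so every p-value here rests on a spread that may be purely technical. The series concerns Siah2 and androgen receptor transcription, and its labels name no question about the proteasome.

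The proteasome degrades proteins that carry ubiquitin chains, which ligases such as SIAH2 attach. Its 20S core is a barrel of outer alpha rings and inner beta rings, and 3 of the beta subunits, PSMB5, PSMB6 and PSMB7, carry the protease sites. The 19S regulatory particle caps the core, with a ring of ATPases (PSMC) that unfold substrates and non-ATPase subunits (PSMD) that bind and remove ubiquitin. Interferon induces the subunits PSMB8, PSMB9 and PSMB10, which replace the constitutive catalytic subunits to form the immunoproteasome. When proteasome activity falls short, the transcription factor NFE2L1 (NRF1) is known to raise the subunit genes together.

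Between 19862 and 20632 probes were detected per array, at a detection p under 0.05, and 42 to 44 of the 44 genes had a detected probe on each array. The 6 epithelial and prostate markers with a named probe (HOXB13, KRT8, KRT18, EPCAM, CDH1 and FOLH1) were detected on all 4 arrays. Of 4 fibroblast markers with a probe, DCN and LUM were also detected on all 4 arrays, COL1A1 on 2 and COL1A2 on 1. Of 4 leukocyte markers, CD14 and CORO1A were detected on 3 arrays and LST1 and LYZ on 1. SIAH2 lay at 8.08 and 8.33 on the pLKO.1 arrays and at 6.20 and 6.51 on the shSiah2 arrays, in normalized log2 intensity. It fell by 1.85 (SE 0.251, adjusted p = 0.00117 by limma), so the knockdown arrays matched their label.

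No proteasome gene passed the test in either direction. Of the 41 genes, 40 had a probe detected on at least 2 arrays and were tested, and 0 rose and 0 fell at an adjusted p under 0.05 (limma, adjusted over all 20750 tested probes). In the same fit 7.24% of the 11894 named genes passed (2.72% higher and 4.51% lower), as did 6.19% of all probes (2.47% higher and 3.72% lower). At an unadjusted p under 0.05, limma placed 3 proteasome genes higher (PSMB6, PSMD11 and PSME4) and 0 lower, which is 7.5% higher, against 10.6% of all named genes higher and 12.3% lower. The log2 differences, taken as shSiah2 minus pLKO.1, ran from -0.47 for PSME2 to 0.66 for PSMD11, and the lowest adjusted p was 0.167, for PSMD11.

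The estimates lay nearer 0 than those of all named genes. Their median SE was 0.251 against 0.253, but limma moderates each SE towards the spread of all probes. An alike SE therefore does not show equal precision, and the named genes were not matched to the family in brightness. The 95% interval of 34 of the 40 genes lay within a 2-fold change either way, which held for 65.2% of all named genes. The median absolute difference was 0.17, against 0.30 over all named genes, and 39 of the 40 genes differed by less than 0.6, as did 79.6% of all named genes. These shares are descriptions, and with 2 arrays per group the SE of a single proteasome gene was still 0.237 to 0.433. Both groups were separate, with no overlap between their arrays, for 7 genes that were higher (17.5%) and 5 that were lower (12.5%) in shSiah2. Over all named genes the background was 27.3% higher and 26% lower. Since RNA was measured in bulk, fewer cells of a kind and less RNA per cell cannot be told apart.

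**Figure D1:**
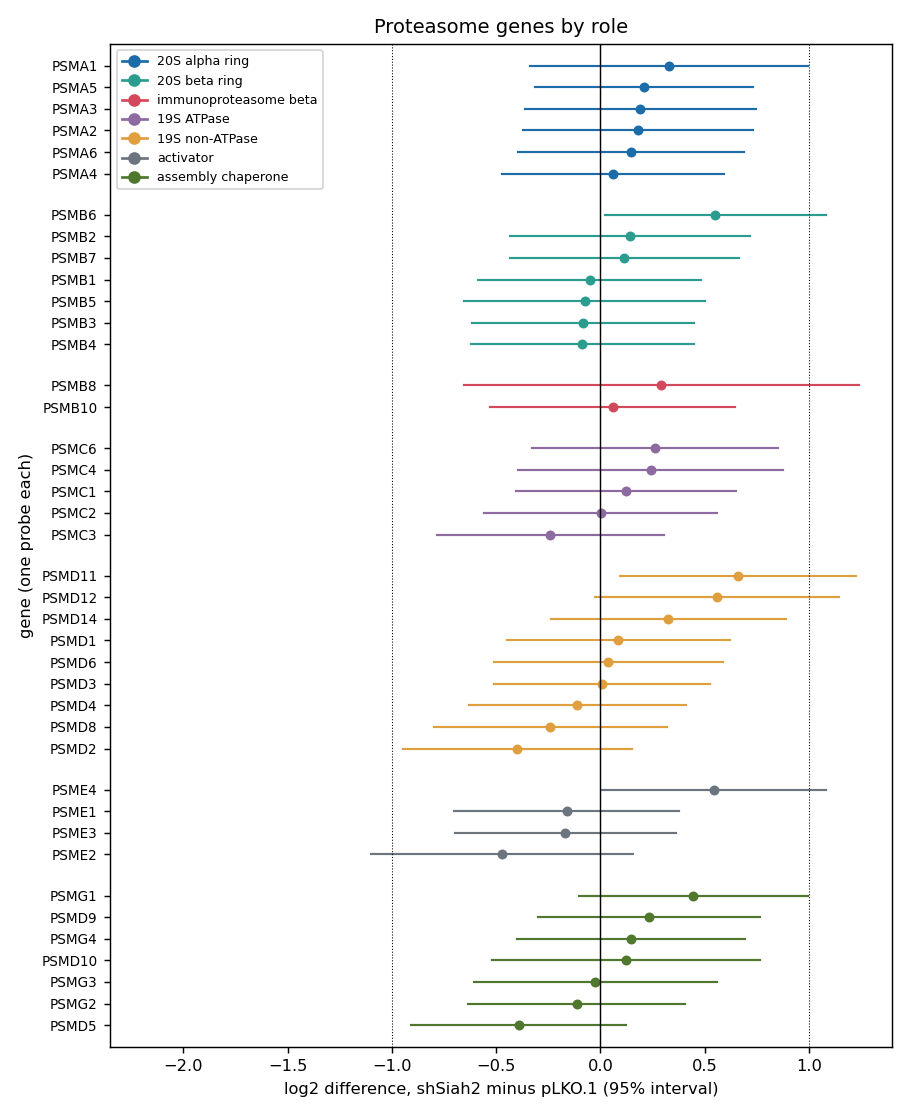
The plot shows the log2 difference (shSiah2 minus pLKO.1) of each of the 40 tested genes on the x axis, grouped by role on the y axis, with points for the estimate and bars for the 95% interval from limma. Dotted lines mark a 2-fold change. The points lie between -0.47 and 0.66, and only the intervals of PSMB6, PSMD11 and PSME4 leave out 0 before adjustment.

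The alpha ring forms the gate through which substrates enter the core. All 6 tested alpha genes lay above 0, with a median difference of 0.18 against 0.01 over all named genes, and 0 passed the test. By brightest probe the highest difference was that of PSMA1, 0.33 (SE 0.305). This probe lay at 11.39 and 12.32 on the pLKO.1 arrays and 12.16 and 12.22 on the shSiah2 arrays. The second pLKO.1 array was the highest of the 4, so the groups overlapped on it. A dimmer PSMA1 probe, ILMN_1691809, lay at 9.37 and 9.70 against 9.94 and 9.77, a difference of 0.32 without overlap. PSMA5 lay at 12.65 and 12.72 against 12.82 and 12.97, a small difference of 0.21 without overlap. PSMA3 and PSMA2 differed by 0.19 and 0.18. Dimmer probes of PSMA3 (ILMN_2318011) and PSMA6 (ILMN_1704094) each differed by 0.36 without overlap, and that of PSMA4 overlapped at 0.21. The agreement in sign depended on the first pLKO.1 array, which was the lowest of the 4 for all 6 alpha genes. It was also the lowest for 20 of the 40 genes of the family, and the share over all named genes was not counted. Without that array 3 of 6 alpha genes lay above 0, with a median of 0.03. With 75th percentile scaling 5 of 6 did, with a median of 0.07.

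In the constitutive beta ring 3 of 7 genes lay above 0, the median was -0.05 and 0 passed the test. PSMB6, which carries the caspase-like site, lay at 13.03 and 13.08 on the pLKO.1 arrays and at 13.73 and 13.48 on the shSiah2 arrays. Both shSiah2 arrays were above both controls, and the difference of 0.55 (SE 0.242, 1.46-fold) had an unadjusted p of 0.0431 and an adjusted p of 0.220 by limma. It stayed on the same side of 0 under every alternative tried, from 0.41 to 0.66, and passed the threshold under none, with adjusted p between 0.0586 and 0.533.

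The other catalytic genes did not share this separation. PSMB5, the chymotrypsin-like subunit that proteasome inhibitors such as bortezomib bind, lay at 12.24 and 12.76 against 12.30 and 12.54, a difference of -0.08 (95% interval -0.66 to 0.50). PSMB7, the trypsin-like subunit, lay at 11.95 and 12.33 against 12.31 and 12.20, a difference of 0.12 (95% interval -0.43 to 0.66). For both, the arrays of the 2 groups overlapped. The structural subunit genes PSMB1, PSMB2, PSMB3 and PSMB4 differed by -0.05, 0.14, -0.08 and -0.09. Without the second pLKO.1 array, 6 of the 7 beta genes lay above 0 and the median was 0.19, and without the first 1 of 7 did, with a median of -0.13.

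The immunoproteasome genes divided into 1 gene that was well detected and 2 near background. PSMB10, the interferon-induced replacement of PSMB7, was detected on all 4 arrays. It lay at 11.29 and 11.04 on the pLKO.1 arrays and at 11.50 and 10.94 on the shSiah2 arrays, a difference of 0.06 (SE 0.269, adjusted p = 0.934 by limma). Both shSiah2 arrays bracketed the controls, and the sign turned under 75th percentile scaling, at -0.033, and in the authors' value table, at -0.030.

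PSMB9, the replacement of PSMB6, was not tested because neither of its 2 probes was detected on more than 1 array. Its deposited intensities were 134.6, 149.9, 138.5 and 147.3 on probe ILMN_1798233, in the order of pLKO.1 replicates 1 and 2 and shSiah2 replicates 1 and 2, and 136.4, 154.8, 149.6 and 117.6 on ILMN_2376108. Median intensities over all probes were 130.8 to 144.3 per array, so both probes lay close to the middle of an array on which most probes were not detected. PSMB9 was not detected on either shSiah2 array and was detected on pLKO.1 replicate 2 alone. No fold is given for either probe.

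PSMB8, the replacement of PSMB5, was measured by 3 probes that went different ways. The probe detected on 2 arrays, ILMN_1767006, lay at 5.10 and 5.90 against 5.01 and 6.57, a difference of 0.29 (SE 0.433, adjusted p = 0.769 by limma), and each group held 1 array at background. The other 2 probes were detected on pLKO.1 replicate 2 alone. Their means were 5.76 and 5.92 on the pLKO.1 arrays against 4.76 and 5.01 on the shSiah2 arrays. Since the knockdown arrays and 1 of the 2 control arrays were at background, no fold is given and neither probe was tested. The first probe turned to -0.50 without shSiah2 replicate 2 and reached 1.07 without shSiah2 replicate 1, so single arrays decided its sign.

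**Figure D2:**
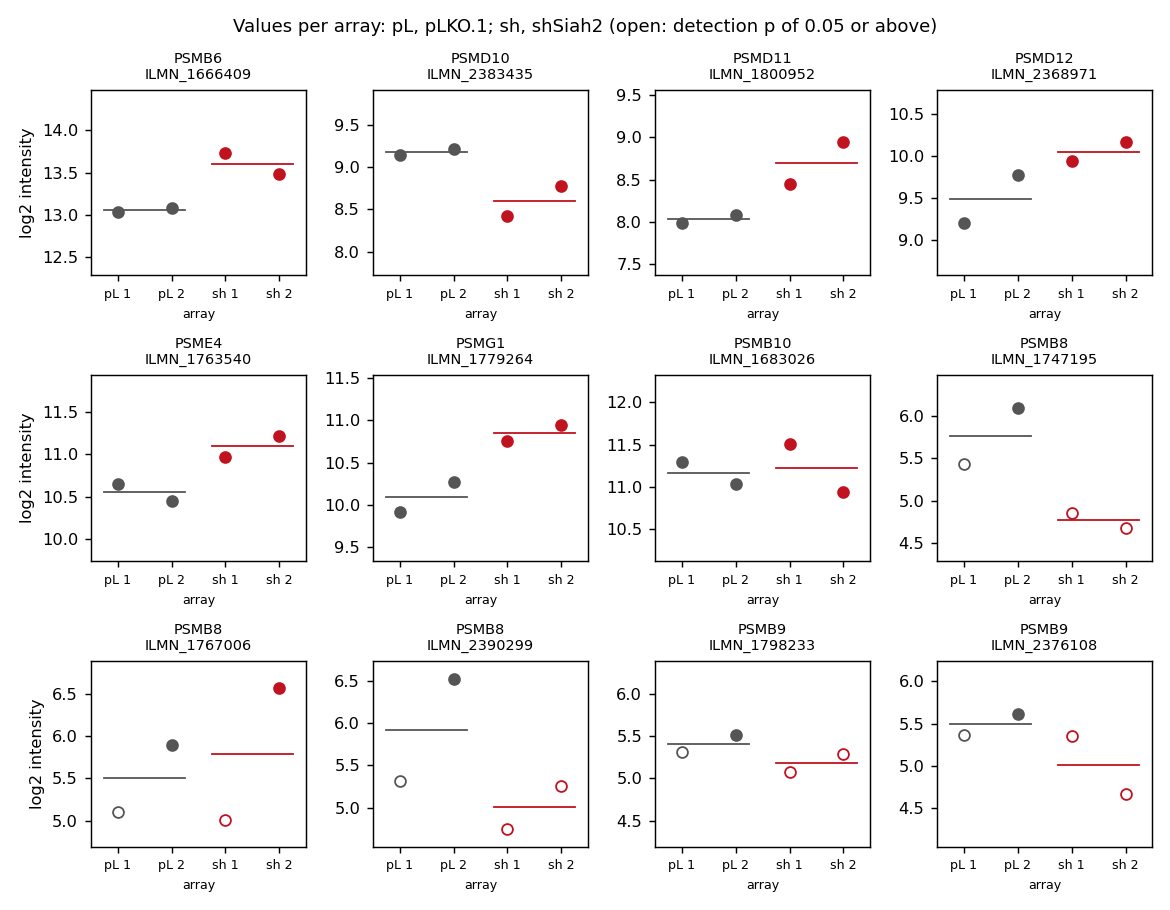
Each panel plots 1 probe, with the 4 arrays on the x axis and normalized log2 intensity on the y axis, over the same span in every panel. Grey points are pLKO.1, red points are shSiah2, lines are group means of 2 arrays, and open points were not detected. PSMB6, PSMD11, PSMD12, PSME4 and PSMG1 have both shSiah2 arrays above both controls, the PSMD10 probe has both below, and the PSMB8 and PSMB9 probes are open on 2 or 3 of the 4 arrays.

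The promoters of PSMB10 and PSMB9 are shown because one of these interferon-inducible genes was detected throughout and the other stayed near background. Both come from RefSeq (build GRCh38.p14) and run from 250 bases before to 50 bases after the gene's start, 5′ to 3′ on the gene's strand. Capitals mark the core of the interferon-stimulated response element (ISRE), searched as GAAA, any 2 bases and GAAA, and also TGACNNNGC, the core of the antioxidant response element (ARE) that NFE2L1 and NFE2L2 bind with small MAF proteins, and CCAAT, on either strand. The PSMB10 window lies at chr16:67936801-67937100 on the minus strand and the PSMB9 window at chr6:32853942-32854241 on the plus strand.
PSMB10: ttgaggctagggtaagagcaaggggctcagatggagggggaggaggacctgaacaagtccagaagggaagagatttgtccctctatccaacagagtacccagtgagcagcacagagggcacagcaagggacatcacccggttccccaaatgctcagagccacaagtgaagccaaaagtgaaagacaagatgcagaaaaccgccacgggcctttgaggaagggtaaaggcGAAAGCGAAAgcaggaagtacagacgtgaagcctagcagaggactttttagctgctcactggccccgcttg
PSMB9: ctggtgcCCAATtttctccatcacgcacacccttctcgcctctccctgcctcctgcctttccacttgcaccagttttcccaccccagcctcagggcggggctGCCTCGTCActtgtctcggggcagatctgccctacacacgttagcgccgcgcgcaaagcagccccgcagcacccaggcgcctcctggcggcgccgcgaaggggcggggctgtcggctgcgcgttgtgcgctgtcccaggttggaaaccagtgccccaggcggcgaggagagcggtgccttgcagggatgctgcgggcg
The PSMB10 window held 1 ISRE core, at bases 230 to 239, and no ARE core. The PSMB9 window held 1 ARE core on the reverse strand, at bases 103 to 111, and 1 CCAAT, and no match to the ISRE core as searched. Whether these letters bear on detection or on the response to interferon was not tested.

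The interferon-linked partners of the immunoproteasome gave no call over all probes. Of 9 listed genes, 6 were tested, and 0 rose and 0 fell, where 7.24% of all named genes passed. TAP1, a peptide transporter gene that lies beside PSMB9, stood at 9.84 and 9.96 on the pLKO.1 arrays and 9.29 and 9.22 on the shSiah2 arrays. Both knockdown arrays were below both controls, and the difference of -0.64 (SE 0.239) had an adjusted p of 0.144 by limma, and of 0.0420 without background correction and 0.0489 with the authors' value table. The partner transporter gene TAP2 lay at -0.59 on its brighter probe, detected on all 4 arrays. A dimmer TAP2 probe, detected on only 1 array of each group, lay at 0.14. ERAP2, a peptide-trimming enzyme, and IRF1, a transcription factor induced by interferon, differed by 0.28 and 0.10. IRF1 was spread over 6.98 and 5.10 on the shSiah2 arrays alone. On shSiah2 replicate 2 it was not detected (detection p of 0.179), so its difference is not read as a change. B2M lay at -0.08 on its brighter probe and at -0.62 on the other, and TAPBP at 0.08 on its brightest.

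The 19S ATPase ring had 4 of 5 genes above 0, a median of 0.12 and 0 calls. PSMC6 lay at 11.32 and 11.94 against 11.85 and 11.93, a difference of 0.26, and PSMC4 at 10.07 and 10.88 against 10.76 and 10.67, a difference of 0.24 (SE 0.290). On these brightest probes the groups overlapped and pLKO.1 replicate 1 stood below the other 3 arrays. A dimmer PSMC6 probe, ILMN_2096759, lay at 7.27 and 7.13 against 7.34 and 8.23, a difference of 0.59 without overlap. PSMC3 was lower at -0.24 (95% interval -0.78 to 0.30), and PSMC2 was the nearest to level, at 0.0004. PSMC1 lay at 0.12 on its brighter probe and at 0.46, without overlap, on ILMN_1710406. Probes for PSMC1 are the least certain, since RefSeq lists 13 PSMC1 pseudogenes that a probe may not separate. Without pLKO.1 replicate 1 a single ATPase gene lay above 0 and the median was -0.16, and with 75th percentile scaling 2 of 5 lay above 0.

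The non-ATPase subunits of the 19S particle held the widest range among the subunits. PSMD11, a lid subunit, lay at 7.99 and 8.09 on the pLKO.1 arrays and at 8.45 and 8.95 on the shSiah2 arrays. This difference of 0.66 (SE 0.259, 1.58-fold) was the largest of the 40, with an unadjusted p of 0.0256 and an adjusted p of 0.167 by limma. It ranged from 0.41 without shSiah2 replicate 2 to 0.91 without shSiah2 replicate 1, so the second shSiah2 array carried much of it. PSMD12, also a lid subunit, lay at 9.21 and 9.77 against 9.94 and 10.16, a difference of 0.56 (SE 0.268, unadjusted p = 0.0586 by limma). Its groups did not overlap, although the lower of its shSiah2 arrays was close to the higher control. The difference was 0.28 without pLKO.1 replicate 1 and 0.84 without pLKO.1 replicate 2.

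The remaining lid and base genes lay on both sides of 0. PSMD14, the deubiquitinase of the lid, lay at 10.67 and 11.09 against 11.08 and 11.34, a difference of 0.33 with overlap. PSMD2, a scaffold of the base, was lower on both shSiah2 arrays, at 11.52 and 11.69 against 11.39 and 11.02, a difference of -0.40 (SE 0.251, adjusted p = 0.404 by limma), which ran from -0.59 to -0.22 as single arrays were left out. PSMD8 lay at -0.24, and the ubiquitin receptor gene PSMD4 at -0.11 on its brightest probe. PSMD1, PSMD6 and PSMD3 lay within 0.09 of 0.

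The promoters of PSMD11 and PSMD12 are printed because these genes had the highest log2 differences by brightest probe, with the same letters in capitals. The PSMD11 window is chr17:32444260-32444559 on the plus strand and the PSMD12 window chr17:67366528-67366827 on the minus strand.
PSMD11: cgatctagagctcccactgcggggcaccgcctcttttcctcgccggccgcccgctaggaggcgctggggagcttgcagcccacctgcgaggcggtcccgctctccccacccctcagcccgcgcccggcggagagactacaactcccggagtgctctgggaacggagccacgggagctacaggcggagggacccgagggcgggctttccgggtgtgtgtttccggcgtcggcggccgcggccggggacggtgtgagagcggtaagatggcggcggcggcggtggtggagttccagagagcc
PSMD12: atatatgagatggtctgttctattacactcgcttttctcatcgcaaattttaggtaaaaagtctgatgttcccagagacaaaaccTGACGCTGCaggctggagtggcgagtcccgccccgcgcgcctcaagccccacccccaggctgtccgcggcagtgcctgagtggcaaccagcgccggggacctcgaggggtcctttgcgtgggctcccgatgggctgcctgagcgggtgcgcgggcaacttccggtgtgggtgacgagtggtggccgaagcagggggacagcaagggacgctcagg
The PSMD12 window held 1 ARE core, at bases 86 to 94, and the PSMD11 window held none of the 3 motifs.

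The activators, which open the core in place of the 19S particle, went apart. PSME4 (PA200), a nuclear activator, lay at 10.65 and 10.45 on the pLKO.1 arrays and 10.97 and 11.22 on the shSiah2 arrays. Both shSiah2 arrays were higher, and the difference of 0.54 (SE 0.246, 1.46-fold) had an unadjusted p of 0.0480 and an adjusted p of 0.232 by limma. It stayed between 0.42 and 0.68 under the alternatives and never passed. The interferon-induced pair PSME1 and PSME2, the subunits of PA28, lay at -0.16 and -0.47. PSME2 stood at 11.29 and 12.00 against 11.34 and 11.01, where the second control array was far above the other 3, and without it the difference was -0.11, against -0.83 without the first. PSME3 (PA28 gamma) lay at -0.17 on one probe and at -0.18 on the other.

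The promoter of PSME4, chr2:53970944-53971243 on the minus strand, is shown as that of the one activator gene that was higher.
PSME4: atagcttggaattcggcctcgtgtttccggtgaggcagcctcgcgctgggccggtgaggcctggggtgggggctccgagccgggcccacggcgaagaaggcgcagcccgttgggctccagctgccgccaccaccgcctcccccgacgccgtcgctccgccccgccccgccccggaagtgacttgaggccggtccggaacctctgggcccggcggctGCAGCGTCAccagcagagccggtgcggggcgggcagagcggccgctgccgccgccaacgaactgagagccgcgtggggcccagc
It held 1 ARE core on the reverse strand, at bases 217 to 225. Among the 36 member genes with a promoter window, 13 (36.1%) held an ARE core, against 15.3% of 9549 tested genes and 13.6% of all 27305 windows. An ISRE core was in 6 (16.7%), against 2.59% of tested genes and 3.65% of all windows, and CCAAT was in 16 (44.4%), against 37.5% and 35.7%. Both PA28 genes, PSME1 and PSME2, held an ARE and an ISRE core. For genes with several windows the first one listed was read, both strands were searched, and a match is a description of letters and not a site of binding.

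The assembly genes include the PSMG chaperones, which build the core, and PSMD5, PSMD9 and PSMD10, which build the base of the 19S particle. Their median was 0.12, with 4 of 7 genes above 0 and 0 calls. PSMG1 was higher on both of its probes. The brighter probe lay at 10.74 and 11.13 against 11.42 and 11.34, a difference of 0.44 (SE 0.251), and ILMN_1779264 lay at 9.92 and 10.27 against 10.76 and 10.95, a difference of 0.76 (SE 0.250). Without pLKO.1 replicate 1 the brighter probe differed by 0.24, and without pLKO.1 replicate 2 by 0.64. On neither probe did the groups overlap, and the second had the lowest adjusted p of any proteasome probe, 0.102 by limma (unadjusted p = 0.0105). PSMD5 was the tightest of the lower genes, at 7.70 and 7.71 against 7.32 and 7.30, a difference of -0.39 (SE 0.237, adjusted p = 0.380 by limma). The replicates of PSMD5 lay close together, and its SE, which limma moderates towards the spread of all probes, was the lowest of the 40. PSMD9 lay at 0.23, PSMG4 at 0.15, PSMG3 at -0.02 and PSMG2 at -0.11.

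Of 12 genes with more than 1 tested probe, 10 had all probes on the same side of 0, and PSMD10 and PSMD6 did not. PSMD10 (gankyrin), which also binds the retinoblastoma protein, lay at 0.12 on its brightest probe, at 10.88 and 11.15 against 10.74 and 11.54. On ILMN_2383435 it lay at 9.14 and 9.21 against 8.42 and 8.78, a difference of -0.57 (SE 0.249, unadjusted p = 0.0403, adjusted p = 0.213 by limma), and on the dimmest probe at -0.36. The spread between PSMD10 probes, 0.69, was the largest among the 12 genes, whose median spread was 0.17. No direction can be given for PSMD10 as a gene. In all, 5 of 55 tested proteasome probes (9.09%) had an unadjusted p under 0.05, against 21.1% of all tested probes. They were those of PSMB6, PSMD11, PSME4, PSMG1 and PSMD10.

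**Figure D3:**
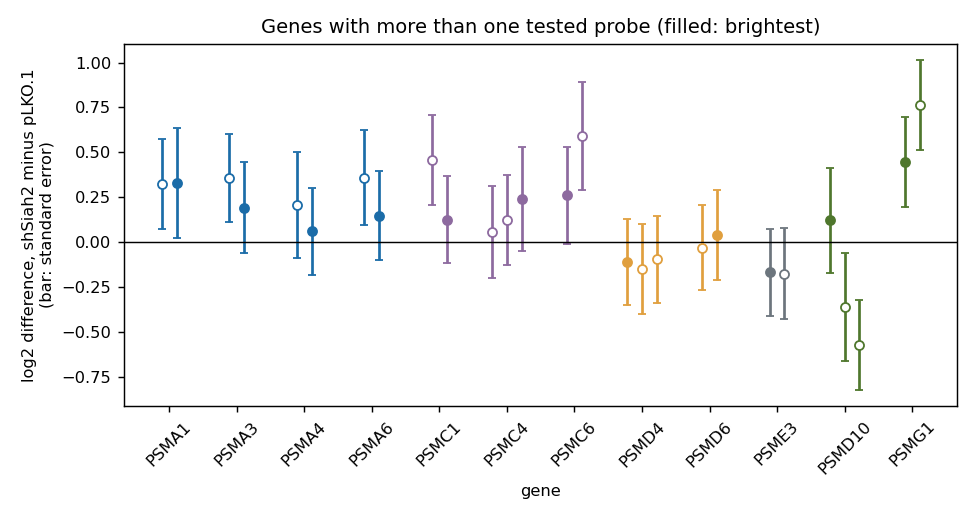
The plot gives the log2 difference (shSiah2 minus pLKO.1, y axis) of every tested probe of the 12 genes with more than 1 (x axis), with bars of 1 SE. Colours are roles as in the plot by gene, and the filled point is the brightest probe. The 3 PSMD10 probes lie between -0.57 and 0.12, and both PSMG1 probes lie above 0, at 0.44 and 0.76.

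The 3 genes that only share the symbol are no proteasome subunits. PSMC3IP, a factor of meiotic recombination, lay at 0.37, PSME3IP1, which binds PSME3, at -0.17, and the antisense RNA gene PSMG3-AS1 at 7.30 and 6.68 against 6.34 and 6.31. The last difference, -0.66 (SE 0.270), was the most negative among the 43 tested genes of the symbol rule and had an adjusted p of 0.183 by limma. Its sense partner PSMG3 overlapped between groups.

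The median difference of the family moved with single arrays of both groups. It was 0.10 over the 40 genes against 0.01 over all named genes, and 26 of the 40 genes (65%) lay above 0, against 51.1% of all. On pLKO.1 replicate 1 the family's median deviation from each gene's mean was -0.13, against 0.01 for all named genes, while on the other 3 arrays it was 0.0034 to 0.076. Within the control group 30 of the 40 genes (75%) were higher on replicate 2 than on replicate 1, against 48.7% of all named genes. The family's median difference between these replicates was 0.25, which exceeds its median difference between the groups. Without pLKO.1 replicate 1 the family median was -0.07 and 16 of 40 genes lay above 0, and without pLKO.1 replicate 2 it was 0.18 with 29 above. Without shSiah2 replicate 2 it was 0.023, with 22 above, against 0.031 over all named genes. The split also went with scaling: 20 of the 40 genes lay above 0 with 75th percentile scaling and 20 in the authors' value table, with medians of 0.0063 and 0.0089. What sets pLKO.1 replicate 1 apart was not tested.

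**Figure D4:**
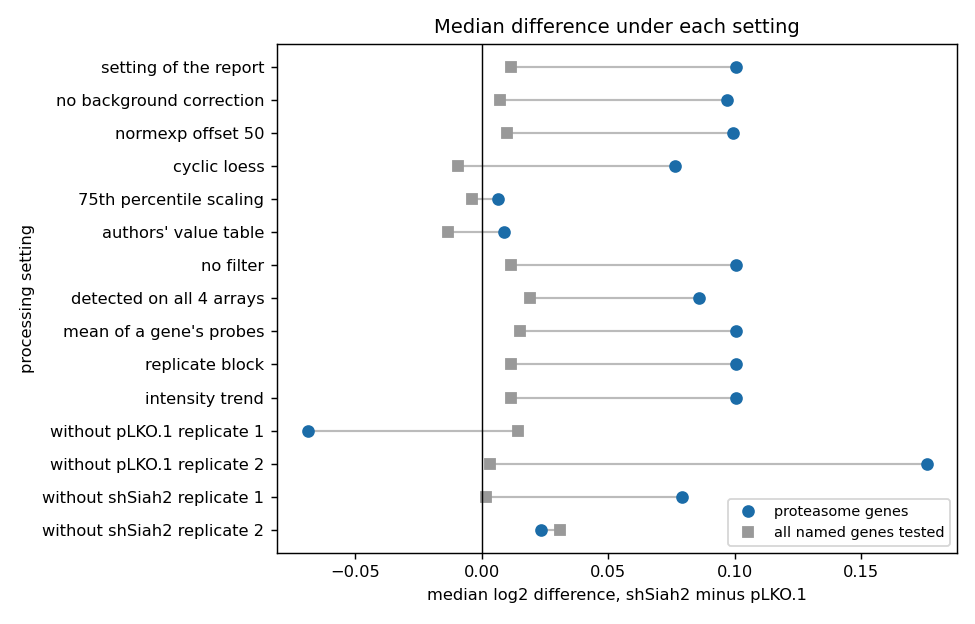
For each processing setting (y axis) the plot gives the median log2 difference (shSiah2 minus pLKO.1, x axis) of the 40 proteasome genes (circles) and of all named genes tested (squares); the setting requiring detection on all 4 arrays holds 39 genes. The family median is 0.10 in the setting of the report, 0.0063 with 75th percentile scaling, 0.0089 in the authors' value table, and -0.07 without pLKO.1 replicate 1.

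Proteasome-associated genes outside the symbol rule also held 0 calls of 11 tested, with a median of 0.16 and 9 above 0. Over all named genes 7.24% were called, the median was 0.01 and 51.1% lay above 0. AKIRIN2, a factor for nuclear import of proteasomes, lay at 8.72 and 9.25 against 9.96 and 9.84, a difference of 0.92 (SE 0.262, 1.89-fold, adjusted p = 0.0621 by limma). It passed under 7 of 14 alternatives, among them the replicate block (adjusted p = 0.0420) and the authors' value table (adjusted p = 0.0126). ECPAS (ECM29), an adaptor that binds the 26S proteasome, was higher on both probes, at 0.60 and 0.93 (adjusted p = 0.195 and 0.0531 by limma). TXNL1 lay at 0.48 and USP14, a deubiquitinase of the 19S particle, at 0.44. The assembly factor POMP lay at 0.34, and UCHL5 and PAAF1 lay below 0, at -0.29 and -0.05.

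Of the NFE2L1 pathway, 7 genes were tested, and 5 of the 6 detected in both groups lay above 0, with a median of 0.32. Over all named genes 51.1% lay above 0, with a median of 0.01. Within the control group 0 of the 7 genes were higher on replicate 2 than on replicate 1, against 48.7% of all named genes. The median difference of the 7 genes between these replicates was -0.31, against -0.01 over all named genes. NFE2L1 itself lay at 9.09 and 9.04 against 9.09 and 9.34, a difference of 0.15 (SE 0.242). NFE2L2 lay at 0.49, with 9.81 and 9.75 against 10.25 and 10.28. MAFF, a small MAF partner of both factors, lay at 0.65 on its brighter probe (adjusted p = 0.177) and rose by 1.30 on ILMN_1680139 (SE 0.262, adjusted p = 0.0134 by limma), from 5.79 and 6.27 to 7.21 and 7.45. Its relative MAFG lay at 0.58 and 0.69 on 2 probes. DDI2, the protease that activates NFE2L1, was detected on both shSiah2 arrays and on neither control array, so no difference is given for it. Its detection p was 0.055 and 0.071 on the pLKO.1 arrays against 0.023 and 0.035 on the shSiah2 arrays. All arrays thus lay close to the cutoff of 0.05, and the contrast in detection is not read as a change (adjusted p = 0.527 by limma). By gene, with the brightest probe, 0 of the 7 passed, while MAFF passed when its probes were averaged (0.98, adjusted p = 0.0381 by limma), and MAFK was not analysed here.

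Shuttle and extraction factors deliver ubiquitinated proteins to the proteasome. Of 10 tested, 0 passed, the median was 0.22 and 7 lay above 0. Over all named genes 7.24% passed, the median was 0.01 and 51.1% lay above 0. RAD23B lay at 9.17 and 9.27 against 9.82 and 9.88, a difference of 0.63 (adjusted p = 0.151 by limma, and 0.0449 without background correction). UBQLN1 lay at 11.12 and 11.40 against 11.72 and 12.02, a difference of 0.61 (adjusted p = 0.190). For neither did the arrays of the groups overlap, which held in the higher direction for 27.3% of all named genes. UBQLN2 and FAF2 lay at 0.42 and 0.41.

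Of the ubiquitin genes and E1 enzymes, 3 of 6 were tested and 0 passed, against 7.24% of all named genes. UBA6, an E1 enzyme that also activates a ubiquitin-like protein, lay at 9.22 and 9.47 against 10.01 and 10.38, a difference of 0.85 (SE 0.254, 1.80-fold, adjusted p = 0.0727 by limma), and it passed under 6 of 14 alternatives. UBB, a polyubiquitin gene, lay at 14.34 and 14.39 against 14.31 and 14.40, a difference of -0.01. UBA1, the main E1 enzyme, differed by 0.16 on its brightest probe, by 0.10 on ILMN_1683609 and by -0.41 on ILMN_1720764. No direction is given for UBA1 as a gene.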

How the data were processed

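The authors deposited, for 47228 probes, a linear intensity, whose file names no normalization, and a detection p-value per array. A deposited value table of 24733 probes is on a log2 scale, with slopes of 1.01 to 1.02 against the log2 of bright intensities; its medians were 7.60, 7.61, 7.59 and 7.62, and how it was scaled stays unknown. No scanner software is named in the sources used here.

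These intensities went through neqc of limma 3.58.1 (R 4.3.3), which takes the background from the detection p-values (normexp, offset 16), normalizes by quantiles and takes log2. Probes detected (p under 0.05) on 2 or more arrays, 20750 in all, were tested two-sided with lmFit and eBayes, without covariates, with Benjamini-Hochberg adjustment over all tested probes at 0.05. The fit was tested on simulated data. Intervals are limma's 95% intervals, and the number of arrays limits the precision. Rose and fell are used past the threshold only.

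Symbols came from the platform annotation, updated through Entrez IDs to RefSeq names (GRCh38.p14): 18007 probes have 1 symbol, 4 several, and 29217 are unnamed here. The brightest tested probe, by mean, stands for its gene. Of 48 RefSeq protein-coding genes of the rule, 7 (PSMA7, PSMA8, PSMB11, PSMC5, PSMD7, PSMD13 and PSMF1) have no named probe and were not analysed here, nor were some genes of the pathway lists. The rule named the immunoproteasome genes and their counterparts, members at an unadjusted p under 0.05, and up to 4 per role or list by size; other members are named for completeness. Members and lists were chosen with earlier results of these data known.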

Additional observations from a re-analysis of the deposited data

How the results depend on the processing

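Of the 14 alternatives, those on all arrays called 0 proteasome genes in either direction. The lowest adjusted p among them was 0.0586 by limma (PSMB6, no background correction). Each gene was read there on its brightest tested probe, or on the mean of its probes where these were averaged. Other probes were not followed singly. Among them was PSMG1 probe ILMN_1779264, which had the lowest adjusted p of any proteasome probe in the setting of the report (0.102 by limma). The fit with the replicate number as a replicate block changed no proteasome call (0 higher and 0 lower, lowest adjusted p 0.115); same-numbered arrays deviated together at a correlation of 0.09, and with 2 pairs this does not show that they were paired. The block brought AKIRIN2 and UBA6 past the threshold (adjusted p = 0.0420 and 0.0427). All called probes numbered 1284, 640 with no filter on dim probes, where more probes were tested, and 483 to 1242 when each array was left out, and the other alternatives gave 1029 (averaged probes) to 1831 (authors' value table), with 1815 under the block. The family median was -0.069 to 0.18 in those fits. Of the 40 proteasome genes, 6 turned sign with 75th percentile scaling and 6 in the authors' value table, 2 with cyclic loess, 1 with averaged probes, 0 in the other 6 alternatives on all arrays, and 5 to 10 when an array was left out (10 without pLKO.1 replicate 1). Among the 50 genes chosen by the naming rule, signs turned in 23 fits, none of them called: with 75th percentile scaling and in the authors' value table, PSMB10 (-0.033 and -0.030) and PSMC1 (-0.0035 and -0.00074), and UBA1 when probes of a gene were averaged (-0.048). Leaving out each array in turn, where signs also turned, gave -0.84 to 1.06 for IRF1, -0.13 to 0.79 for PSMA1, -0.013 to 0.37 for PSMA2, -0.22 to 0.34 for PSMB10, -0.13 to 0.41 for PSMB2, -0.24 to 0.071 for PSMB4, -0.33 to 0.19 for PSMB5, -0.073 to 0.31 for PSMB7, -0.50 to 1.07 for PSMB8, -0.16 to 0.64 for PSMC4, -0.049 to 0.57 for PSMC6, -5.00e-05 to 0.29 for PSMG4, -0.059 to 0.031 for UBB. The causes were not tested. Of the 6 probes too dim to test, those of PSMB9 were its only ones, while PSMB8, PSMA1 and PSME1 each kept a tested probe.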
